A study of Mus musculus with 8 samples.

Results

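The levels of imprinted genes were followed in tdTomato-marked cells from the embryonic mouse cochlear nucleus, the hindbrain nucleus that receives the auditory nerve. The set was a list of 32 gene symbols, matched by name. Of these, 30 had a row among the 39017 genes of the count table, and 29 had enough counts to be tested. Phlda2 was too low to be tested, and the expression of Snrpn and Kcnq1ot1 was not analysed here because no row carried an identifier that maps to them. In the 4 mutant samples, Math1::Cre acted on the Rosa tdTomato reporter and on conditional Hox alleles, which the titles give as Hoxa2+/fl; Hoxb2fl/fl and the design text gives as homozygous for both. The 4 wild type samples carried Math1::Cre and Rosa tdTomato without those alleles. All samples were C57BL/6 at E18.5. Each held 30000 sorted cells from 3 pooled littermates, and each came from a different mother. Math1, also called Atoh1, is expressed in the rhombic lip, and Math1::Cre is meant to limit the reporter and the deletion to descendants of Math1-expressing cells. Libraries are named by group and by their number in the table, mutant 1 to 4 and wild type 5 to 8.

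Imprinted genes are transcribed mainly or only from the allele inherited from a single parent, which is marked by DNA methylation set in the egg or sperm. They lie in clusters, and within a cluster maternally and paternally expressed genes often share an imprinting control region. Many act on fetal growth, and several are abundant in the developing brain, where some change which allele they use in neurons. The counts were not split by allele, so each level below is the sum over both alleles and carries no information on the imprint itself.

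The libraries held 26299105 to 51118195 counts in mutants and 24789043 to 40050010 in wild type. Levels are CPM, reads of a gene scaled to a common library total, after TMM scaling, which evens out differences in library composition. Hoxb2 averaged 5.02 ± 1.49 CPM in mutants and 40.1 ± 4.41 CPM in wild type (SD, n = 4 each), and its log2 fold change was -3.00 (SE 0.199; adjusted p = 3.76e-05 by edgeR). Hoxa2 was at 26.7 ± 15.7 CPM in mutants and 43.2 ± 11 CPM in wild type (SD, n = 4 each; log2 fold change -0.70, edgeR adjusted p = 0.506). All 12 markers listed for the Atoh1 lineage and for excitatory neurons were detected in every library. Of them 1, Nhlh1, passed as lower (edgeR, adjusted p below 0.05), where 0.215% of all tested genes did. Atoh1 itself was at 28.5 to 134 CPM in mutants and 57.5 to 154 CPM in wild type. Markers of other cells were present at far lower sums, and of these C1qa alone passed, a microglial gene that was lower in mutants. The 6 inhibitory neuron markers summed to 44.3 to 102 CPM in mutants and 30.9 to 58.1 CPM in wild type, and the 6 radial glia and astrocyte markers to 191 to 454 CPM in mutants and 300 to 418 CPM in wild type. Oligodendrocyte lineage markers summed to 57.2 to 71.6 CPM in mutants and 59.5 to 93.6 CPM in wild type, and microglial, choroid plexus and erythroid lists to at most 16.8 CPM in mutants and 21 CPM in wild type.

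Promoter windows of 4 members are printed here as examples. They run from 250 bases before to 50 bases after the start and come from RefSeq on GRCm38.p6. The first is shown because it serves a pair of members: Peg3, on the minus strand, and Usp29, on the plus strand, start 165 bases apart and point away from each other. The Peg3 window, chr7:6730370-6730669, is given on the minus strand, and its capitals mark the stretch between both starts. It shares 263 bases with the window of Usp29.
Peg3: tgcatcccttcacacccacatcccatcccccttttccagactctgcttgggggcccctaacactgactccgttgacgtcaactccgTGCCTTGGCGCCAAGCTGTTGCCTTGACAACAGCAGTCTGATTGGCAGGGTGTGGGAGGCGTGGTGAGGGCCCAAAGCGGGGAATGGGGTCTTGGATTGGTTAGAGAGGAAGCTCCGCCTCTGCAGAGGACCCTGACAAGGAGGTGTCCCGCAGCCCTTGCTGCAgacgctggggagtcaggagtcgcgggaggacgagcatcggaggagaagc
The other windows belong to Meg3 (chr12:109540746-109541045), Nnat (chr2:157559828-157560127) and Plagl1 (chr10:13090582-13090881), all on the plus strand. Meg3 and Nnat are the most abundant members of their clusters, and Plagl1 had the smallest unadjusted p of any member above 100 CPM. The capitals mark matches to TGCCGC or to GCGGCA, its other strand. Only windows with a match were taken for these genes, and another Meg3 window held none. TGCCGC is the motif of ZFP57, a zinc finger protein that keeps methylation at imprinting control regions.
Meg3: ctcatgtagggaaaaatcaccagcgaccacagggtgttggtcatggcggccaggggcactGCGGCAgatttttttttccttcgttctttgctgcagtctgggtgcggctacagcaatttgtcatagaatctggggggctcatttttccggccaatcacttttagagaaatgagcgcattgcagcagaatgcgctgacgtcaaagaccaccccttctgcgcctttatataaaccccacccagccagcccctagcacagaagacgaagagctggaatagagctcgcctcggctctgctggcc
Nnat: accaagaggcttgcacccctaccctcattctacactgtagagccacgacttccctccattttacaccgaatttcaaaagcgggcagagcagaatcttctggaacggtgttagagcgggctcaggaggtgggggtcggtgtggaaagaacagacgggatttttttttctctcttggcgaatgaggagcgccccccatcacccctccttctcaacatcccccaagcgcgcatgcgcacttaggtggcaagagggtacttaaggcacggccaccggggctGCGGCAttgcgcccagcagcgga
Plagl1: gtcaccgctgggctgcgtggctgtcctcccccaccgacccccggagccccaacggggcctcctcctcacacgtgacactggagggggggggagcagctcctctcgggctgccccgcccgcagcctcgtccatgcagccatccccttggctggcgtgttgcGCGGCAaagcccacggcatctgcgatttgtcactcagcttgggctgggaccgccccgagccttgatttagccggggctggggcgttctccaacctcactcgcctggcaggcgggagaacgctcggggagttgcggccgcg
TGCCGC on either strand was found in 10 of 42 windows of the members, or 23.8%, against 11.6% of all 32851 windows of this length. The 42 include windows of Snrpn, 1 of which held the motif, and of Kcnq1ot1, which held none. Windows can overlap, as Mest windows chr6:30737800-30738099 and chr6:30737803-30738102 do, and both of these held the motif. By gene, 9 of 26 members with a window held the motif, or 34.6%, against 13.1% of all genes with a window. The windows of the members also held more CG pairs, the sites of methylation, with a median of 13 against 7. A match describes these letters only.

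Per kilobase of the deposited gene length, neuronatin stood far above the other members. Nnat, a small membrane proteolipid of developing neurons that is expressed from the paternal allele, averaged 2846 ± 747 CPM per kb in mutants and 2953 ± 1169 CPM per kb in wild type (SD, n = 4 each). Without correction for length it was the gene with rank 8 of all 39017, at 5206 CPM in mutants and 5401 CPM in wild type. It made up 53.3% to 63.8% of all member counts in mutants and 48.3% to 67.6% in wild type. Ndn, or necdin, a MAGE family protein of postmitotic neurons lost in Prader-Willi syndrome, followed at 86.9 ± 16.0 CPM per kb in mutants and 72.1 ± 14.0 CPM per kb in wild type. Next came Blcap, whose intron holds Nnat in the opposite direction, at 58.1 ± 8.68 CPM per kb in mutants and 53.7 ± 14.1 CPM per kb in wild type. Gnas, which encodes the stimulatory G protein alpha subunit and several imprinted variants, stood at 52.2 ± 6.69 CPM per kb in mutants and 52.6 ± 2.70 CPM per kb in wild type. The long noncoding RNA Meg3 and the ubiquitin ligase gene Ube3a lay close below, at 46.4 ± 13.7 and 42.2 ± 2.77 CPM per kb in mutants and at 36.4 ± 9.67 and 41.2 ± 2.80 CPM per kb in wild type. In wild type, Blcap and Gnas differed by less than the SD of Blcap, and Ube3a and Meg3 by less than the SD of Meg3, while Nnat and Ndn, Ndn and Blcap, and Gnas and Ube3a lay farther apart than the larger of their SDs. This order depends on the gene models, because the deposited lengths of Ndn and Ube3a are 0.447 and 0.247 of their exon lengths in GENCODE release M21. Over the full exon length, an alternative chosen after seeing the data, Ndn was at 38.8 ± 7.15 CPM per kb in mutants and 32.2 ± 6.26 CPM per kb in wild type, below Meg3 in both. Ube3a was then at 10.4 ± 0.684 CPM per kb in mutants and 10.2 ± 0.692 CPM per kb in wild type, while Nnat, Blcap, Gnas and Meg3 kept their values.

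**Figure D1:**
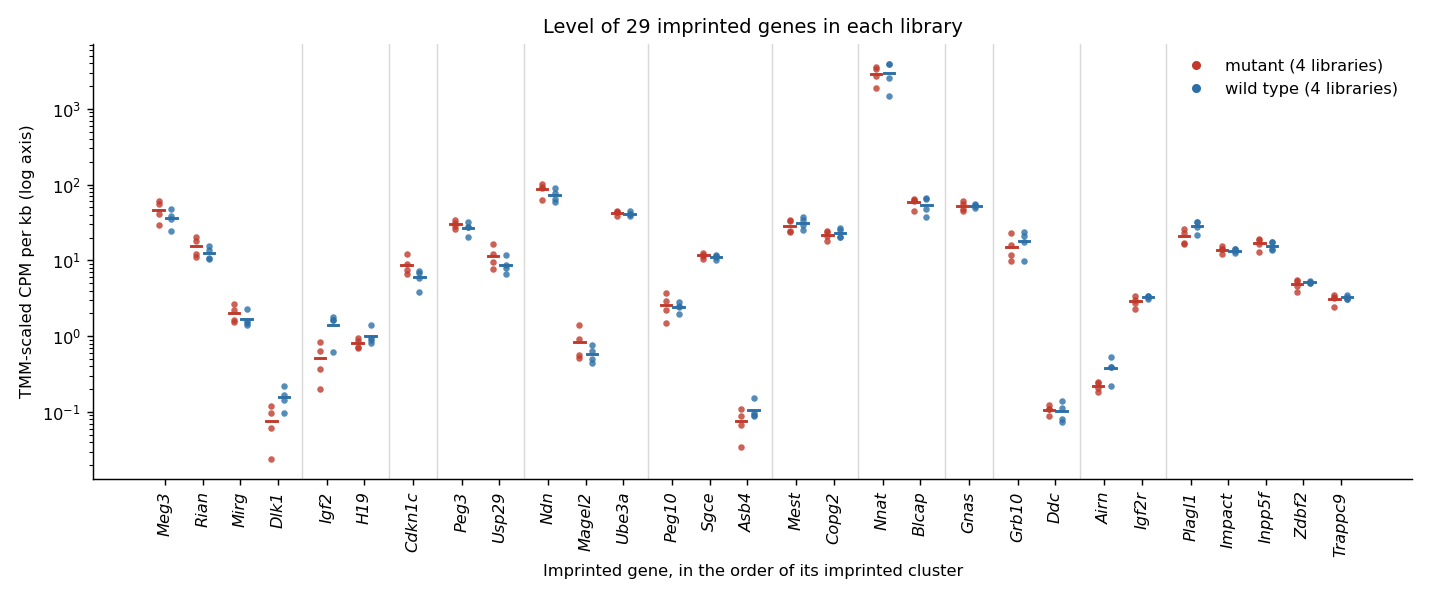
Level of 29 imprinted genes in TMM-scaled CPM per kb of deposited gene length (log axis), with a point for each library and a bar for the mean of 4 mutant (red, left) and 4 wild type (blue, right) libraries. Grey lines part the clusters; Nnat stands at 2846 CPM per kb in mutants and 2953 CPM per kb in wild type, while Dlk1, Asb4 and Ddc stay below 0.2 CPM per kb in both means.

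At the other end, several members were near the limit of detection. Dlk1, a membrane ligand related to Notch ligands, averaged 0.0757 ± 0.0416 CPM per kb in mutants and 0.158 ± 0.0505 CPM per kb in wild type. Asb4, an ankyrin and SOCS box protein of the Peg10 cluster, was at 0.0752 ± 0.0324 CPM per kb in mutants and 0.107 ± 0.0303 CPM per kb in wild type. Ddc, which makes dopamine and serotonin, was at 0.107 ± 0.0146 CPM per kb in mutants and 0.102 ± 0.0311 CPM per kb in wild type. Phlda2, a growth suppressor of the placenta, had counts of 0, 0, 5 and 3 in mutant 1 to 4 and 0, 8, 0 and 3 in wild type 5 to 8. Taking 3 counts of the unscaled total as the most that a count of 0 allows, the limits were 0.0988 and 0.114 CPM in mutant 1 and 2 and 0.081 and 0.0863 CPM in wild type 5 and 7. These limits cover counting error only, since PCR copies are not independent molecules.

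No member of the list passed the test between mutants and wild type. Of the 29 tested, 0 had an adjusted p below 0.05 in edgeR's quasi-likelihood test over all 19494 tested genes, where 0.359% did. With an unadjusted p below 0.05 there were 5 members, 1 higher and 4 lower in mutants, against 12.5% of all tested genes, of which 7.22% were higher and 5.29% lower. By DESeq2 1 member passed, Igf2, as lower, where 2.66% of genes passed and 0.992% as lower. By limma-voom 0 members passed, against 0.354% of genes. The groups overlapped for all 29, whereas they did not for 6.17% of all tested genes. Fold changes were positive for 15 members and negative for 14, with a median of 0.03 on the log2 scale, against -0.01 over all tested genes. With library size as the only scaling these medians were -0.03 and -0.07. The median size regardless of sign was 0.19 for members and 0.20 for all tested genes. The highest of the 8 libraries was a median of 1.91 times the lowest for members and 1.84 times for all tested genes. In pools of sorted cells, fewer cells of a type and less RNA per cell cannot be told apart.

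**Figure D2:**
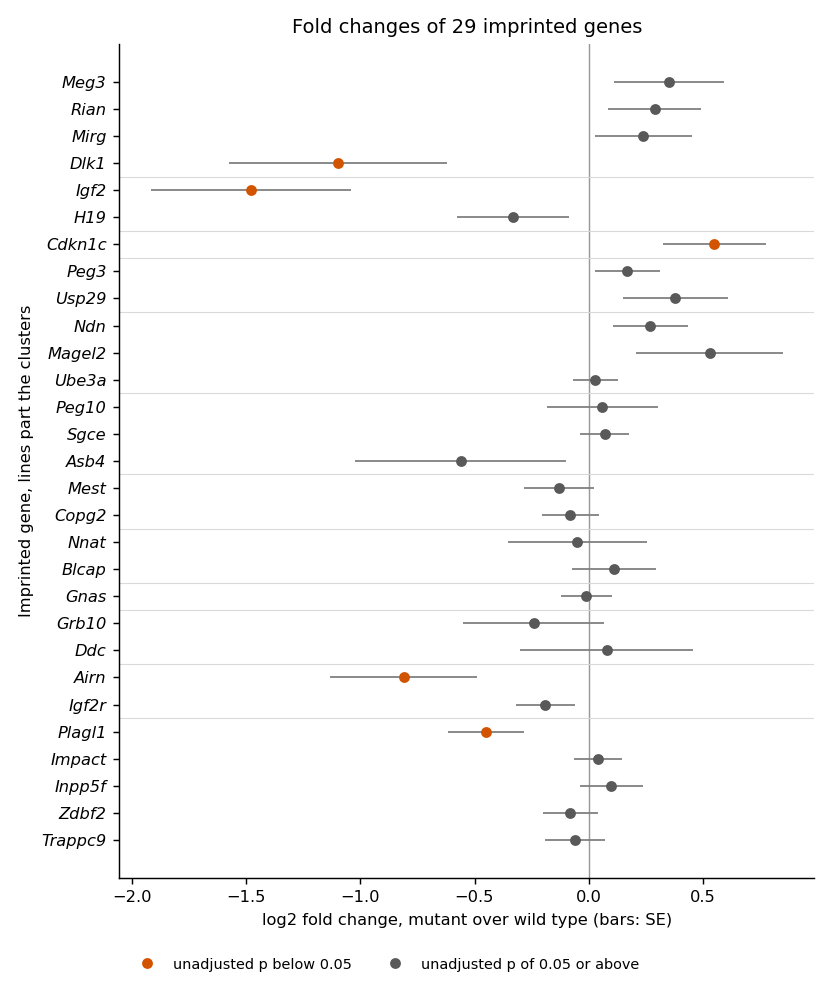
Log2 fold change of mutant over wild type for the 29 tested imprinted genes, from edgeR with approximate SE bars, 4 libraries a group. Orange points have an unadjusted p below 0.05 (Igf2, Dlk1, Airn and Plagl1 lower, Cdkn1c higher), and none has an adjusted p below 0.05.

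Igf2, a paternally expressed fetal growth factor, had the largest difference. It stood at 3.63, 4.77, 2.10 and 1.16 CPM in mutant 1 to 4 and at 10.1, 9.23, 9.27 and 3.57 CPM in wild type 5 to 8. Wild type 8 lay inside the mutant range and far from the other wild type libraries. The log2 fold change was -1.48 (SE 0.438, edgeR unadjusted p = 0.00668, adjusted p = 0.231; exact two-sided permutation p = 0.0857). DESeq2 gave -1.47 with an adjusted p of 0.015, and the edgeR and limma-voom alternatives gave no adjusted p below 0.05. H19, the maternally expressed noncoding RNA that shares the enhancers and control region of Igf2, was at 2.06, 2.25, 1.71 and 1.67 CPM in mutant 1 to 4 and at 3.32, 2.22, 2.12 and 1.95 CPM in wild type 5 to 8. The H19 groups overlapped (log2 fold change -0.33, SE 0.246, edgeR adjusted p = 0.601), and the fold change was -0.13 without wild type 5. Per kb, Igf2 was 0.602 ± 0.259 times as high as H19 in mutants and 1.39 ± 0.485 times in wild type (SD, n = 4 each), a difference that did not pass an exact two-sided permutation test (p = 0.0571).

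Dlk1 followed a similar course at a lower level. It had 17, 17, 7 and 13 counts in mutant 1 to 4, or 0.557, 0.670, 0.136 and 0.351 CPM. Wild type 5 to 8 had 32, 32, 33 and 22 counts, or 0.822, 1.25, 0.944 and 0.557 CPM. Only wild type 8 came down into the mutant range. The log2 fold change was -1.10 (SE 0.478, edgeR unadjusted p = 0.0408, adjusted p = 0.377; exact two-sided permutation p = 0.0571). On unscaled totals, exact 95% Clopper-Pearson bounds were 0.0551 and 0.282 CPM in mutant 3, the lowest, and 0.344 and 0.832 CPM in wild type 8.

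Outside neurons, Igf2, H19 and Dlk1 are known from mesenchymal and vascular cells of the embryo, and markers of those cells were low but uneven here. The 8 leptomeningeal fibroblast markers summed to 9.69, 4.14, 4.91 and 5.32 CPM in mutant 1 to 4 and to 14.0, 16.7, 6.81 and 3.09 CPM in wild type 5 to 8. The 5 pericyte markers summed to 11.7, 17.2, 5.83 and 5.78 CPM in mutants and to 9.87, 16.5, 25.5 and 8.81 CPM in wild type. Wild type 8 was the lowest wild type library in both sums, as it was for Igf2 and Dlk1, and mutant 3 and 4 were the lowest mutants for Igf2, Dlk1 and the pericyte sum. Other rows did not run in parallel: the fibroblast sum was lowest among mutants in mutant 2, which had the highest Igf2 and Dlk1 of the mutants, and wild type 5 had the highest Igf2 with the second lowest pericyte sum of the wild type libraries. The 6 endothelial markers summed to 13.3, 13.4, 5.69 and 6.02 CPM in mutants and to 14.5, 20.4, 12.2 and 6.71 CPM in wild type. Fold changes were negative for all 5 tested fibroblast markers, all 5 pericyte markers and 3 of 6 endothelial markers, and none of these passed (edgeR). Dcn was at 0 counts in mutant 3, and 5 of the 8 fibroblast markers were high enough to be tested. The part of these cells in the Igf2 and Dlk1 values was not tested.

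**Figure D3:**
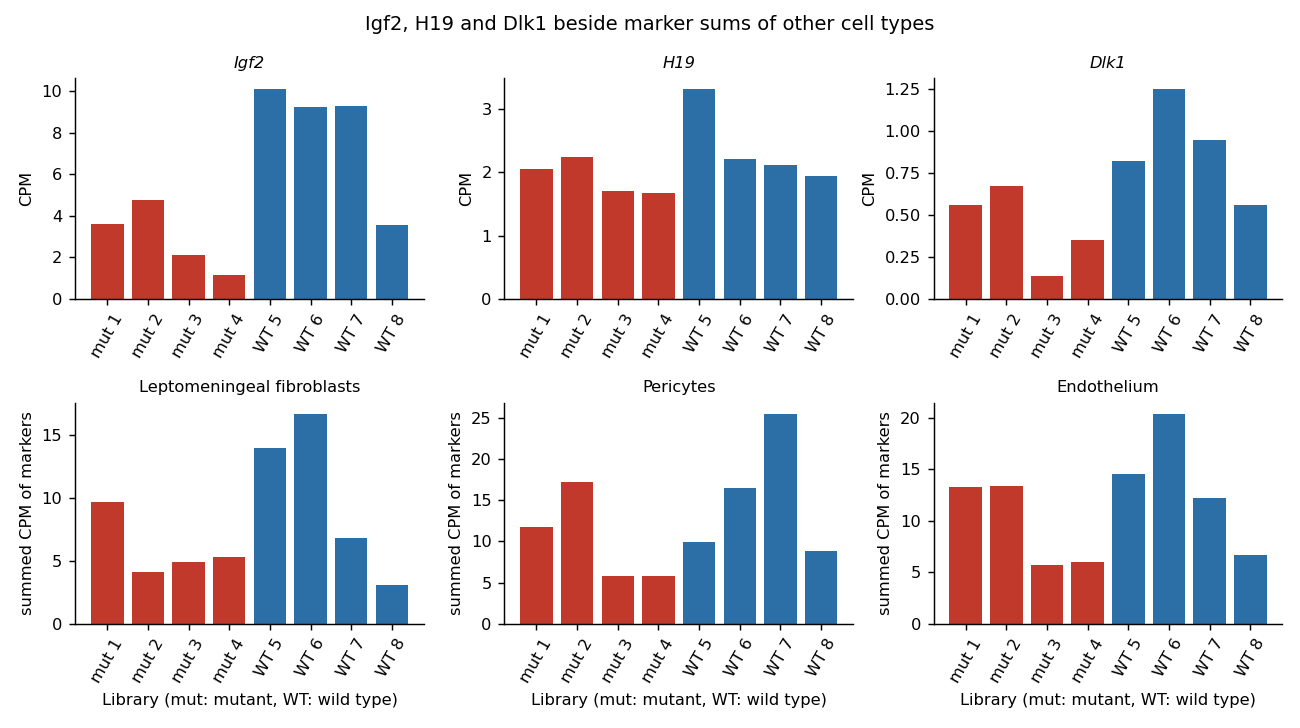
Levels of Igf2, H19 and Dlk1 in CPM (top) and summed CPM of leptomeningeal fibroblast, pericyte and endothelial markers (bottom) in each library, mutants in red on the left and wild type in blue on the right. Igf2 was at 1.16 to 4.77 CPM in mutants and at 9.23 to 10.1 CPM in wild type 5 to 7, with wild type 8 at 3.57 CPM; wild type 8 was also lowest of the wild type libraries in all 3 marker sums.

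Plagl1, or Zac1, a paternally expressed zinc finger factor that activates other imprinted genes, was the most abundant member with an unadjusted p below 0.05. It stood at 188, 170, 125 and 121 CPM in mutant 1 to 4 and at 236, 231, 160 and 198 CPM in wild type 5 to 8. Mutants 1 and 2 overlapped wild type 7. The means were 151 ± 33.3 CPM in mutants and 207 ± 35.1 CPM in wild type (SD, n = 4 each; log2 fold change -0.45, SE 0.168, edgeR unadjusted p = 0.0200, adjusted p = 0.305). The smallest adjusted p of any alternative was 0.0838, without mutant 1.

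Airn, the antisense RNA that silences Igf2r on the paternal allele outside neurons, was at 0.884, 0.867, 0.738 and 0.648 CPM in mutant 1 to 4. In wild type 5 to 8 it was at 1.39, 1.40, 1.92 and 0.785 CPM, so that wild type 8 again fell among the mutants. The log2 fold change was -0.81 (SE 0.322, edgeR unadjusted p = 0.0272, adjusted p = 0.337). Igf2r, the receptor that clears IGF2, is transcribed from both alleles in neurons. It stood at 31.9, 26.1, 21.7 and 28.7 CPM in mutants and at 31.6, 32, 31.1 and 29.2 CPM in wild type (log2 fold change -0.19, SE 0.129, edgeR adjusted p = 0.551). Wild type libraries lay close together and mutants were spread to both sides of wild type 8.

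Cdkn1c, the maternally expressed cyclin-dependent kinase inhibitor p57, was the member that leaned upward with an unadjusted p below 0.05. It stood at 17.5, 23.2, 14.5 and 12.8 CPM in mutant 1 to 4 and at 7.50, 11.3, 14.2 and 13.3 CPM in wild type 5 to 8. Mutant 4 lay below wild type 7 and 8, and wild type 5 was the lowest of all. The log2 fold change was 0.55 (SE 0.226, edgeR unadjusted p = 0.0309, adjusted p = 0.35), and it was 0.29 without mutant 1, wild type 5 and wild type 6.

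In the Dlk1-Dio3 cluster, the maternally expressed noncoding RNAs moved together from library to library. Meg3, the first of them, stood at 537, 1084, 744 and 994 CPM in mutant 1 to 4 and at 631, 440, 863 and 701 CPM in wild type 5 to 8. Rian, which carries small nucleolar RNAs, stood at 160, 291, 174 and 263 CPM in mutants and at 151, 154, 222 and 199 CPM in wild type. Mirg, whose gene body holds 14 microRNA hairpins of the RefSeq table, stood at 11.1, 16.3, 12 and 19.4 CPM in mutants and at 10.3, 10.9, 16.8 and 11.7 CPM in wild type. Mutant 2 and 4 were high and mutant 1, wild type 5 and wild type 6 low in all 3 genes. Log2 fold changes were 0.35 for Meg3 (SE 0.241), 0.29 for Rian (SE 0.203) and 0.24 for Mirg (SE 0.211), with edgeR adjusted p of 0.569, 0.575 and 0.661. With 1 library left out they came down to 0.20 for Meg3 without wild type 6, 0.13 for Rian without mutant 2 and 0.08 for Mirg without mutant 4. All 5 tested inhibitory markers had positive fold changes, and none passed (edgeR). Mutant 2 and 4 also had the highest inhibitory marker sums, at 102 and 98.7 CPM, beside 44.3 and 62.8 CPM in mutant 1 and 3 and 34.2, 30.9, 48.0 and 58.1 CPM in wild type 5 to 8. Wild type 7 came next after mutant 2 and 4 for Meg3 and Rian and was above mutant 2 for Mirg. Its inhibitory sum was below those of mutant 3 and wild type 8. The part of inhibitory neurons in these values was not tested. Reads of Meg3 may be shared with Gm26906, an antisense gene that covers 6.79% of its exons, because nothing in the labels or the table says whether strand was kept.

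Per kb, the 3 RNAs kept steep and steady ratios. Meg3 was 3.01 ± 0.297 times as high as Rian in mutants and 2.87 ± 0.450 times in wild type, and Rian was 7.65 ± 0.964 times as high as Mirg in mutants and 7.46 ± 0.819 times in wild type (SD, n = 4 each). Neither ratio differed between the groups beyond the spread (exact two-sided permutation p = 0.686 and 0.657). The smallest p that 4 against 4 libraries allow is 0.0286. The size of both ratios depends on the gene model of Rian, whose deposited length is 0.789 of its exon length in GENCODE release M21. Over the exon length Rian was at 12.2 CPM per kb in mutants and 9.94 CPM per kb in wild type. Over the deposited length it was at 15.4 CPM per kb in mutants and 12.6 CPM per kb in wild type.

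Nnat varied more between libraries than between groups. It stood at 3396, 6075, 4927 and 6427 CPM in mutant 1 to 4 and at 4659, 2707, 7057 and 7182 CPM in wild type 5 to 8. Wild type 6 and mutant 1 were the lowest, and wild type 8 was 2.65 times as high as wild type 6. The log2 fold change was -0.05 (SE 0.304, edgeR adjusted p = 0.959). Blcap stood at 138, 191, 195 and 183 CPM in mutants and at 143, 113, 201 and 196 CPM in wild type, again lowest in wild type 6 and mutant 1 (log2 fold change 0.11, SE 0.183, edgeR adjusted p = 0.827).

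Libraries that stood apart were the same for many members. Mutant 1, wild type 5 and wild type 6 were the 3 lowest libraries for 8 of the 29 members, or 27.6%, against 8.70% of all tested genes. The 8 were Meg3, Rian, Mirg, Ndn, Copg2, Nnat, Blcap and Inpp5f. They were the 3 highest for 2 members, Grb10 and Igf2r, or 6.90%, against 8.14% of all tested genes. Mutant 2 was the highest library for 9 members, or 31.0%, against 11% of all tested genes, and wild type 7 for 7, or 24.1%, against 9.08%. Wild type 7 was the lowest for 0 members, against 9.39% of all tested genes. Mutant 4 was the lowest for 7 members, or 24.1%, against 11.9% of all tested genes. Mutant 3 was the highest for 2, or 6.9%, against 21.5%. These counts are descriptions, since neighbouring members share a cluster. Several markers split the same libraries. Atoh1 stood at 134 CPM in mutant 1, 89.1 CPM in wild type 5 and 154 CPM in wild type 6 and at most at 59.3 CPM in the others. The fibroblast sum was 9.69, 14.0 and 16.7 CPM in these 3 and at most 6.81 CPM in the others, and the inhibitory sum was 44.3, 34.2 and 30.9 CPM in these 3 and at least 48.0 CPM in the others. Of the glial genes, Olig2 was at 24.4, 38.4 and 36.4 CPM in the 3 and at most 15.4 CPM in the others, and Sox9 at 66.0, 32.4 and 57.6 CPM and at most 30.7 CPM. Pdgfra, listed with Olig2 for the oligodendrocyte lineage, went the other way. It was at 18.6, 15.1 and 17.4 CPM in the 3 and at least at 21.3 CPM in the others. The summed radial glia and oligodendrocyte lineage lists overlapped between the 3 and the others. The part of these cells in the members' values was not tested.

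**Figure D4:**
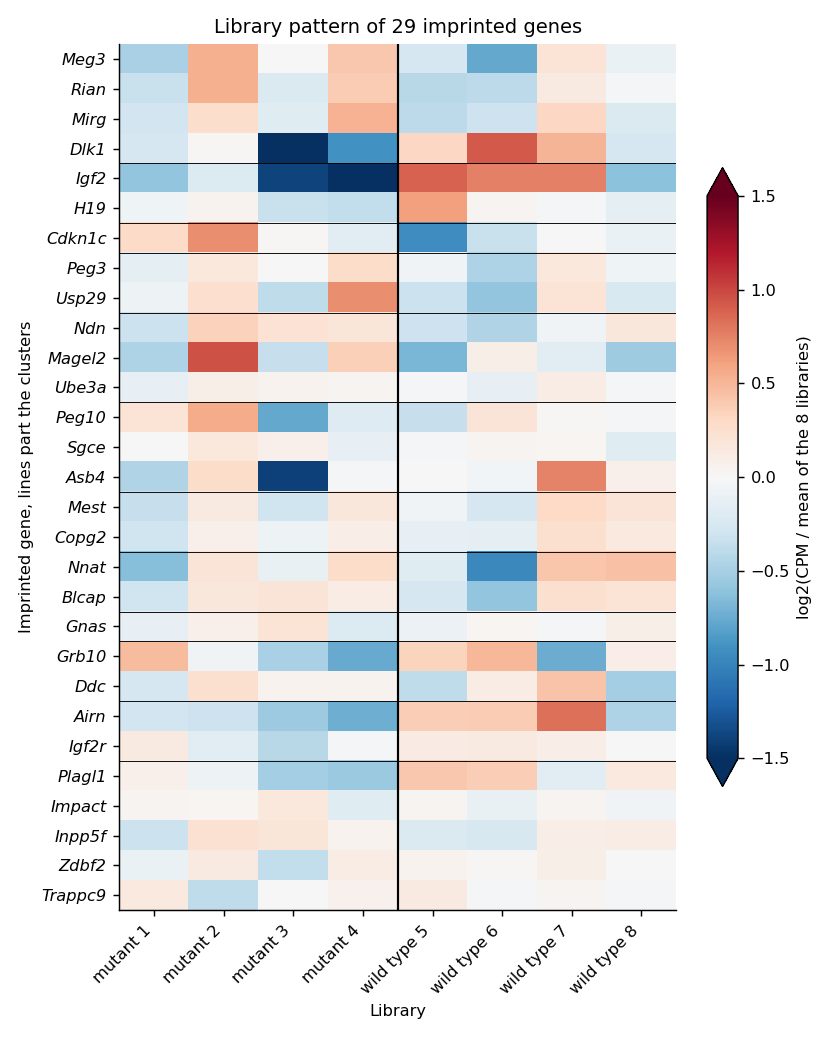
Log2 of the CPM in each library over the mean of the 8 libraries for 29 imprinted genes, mutants left of the vertical line and wild type right of it, with lines between clusters and the strongest colours for values at or beyond the ends of the scale. Meg3, Rian, Mirg, Ndn, Copg2, Nnat, Blcap and Inpp5f are lowest in mutant 1, wild type 5 and wild type 6, while Igf2 and Dlk1 are lowest in mutant 3 and mutant 4.

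Grb10, an adaptor that restrains growth factor signalling and is expressed from the paternal allele in neurons, ran the other way. It stood at 209, 145, 108 and 89.6 CPM in mutant 1 to 4 and at 190, 213, 90 and 161 CPM in wild type 5 to 8. Mutant 1, wild type 5 and wild type 6 were the highest, and mutant 4 and wild type 7 the lowest. The log2 fold change was -0.24 (SE 0.309, edgeR adjusted p = 0.765), and ran from -0.51 without mutant 1 to -0.08 without mutant 4. Its neighbour Ddc stayed at 0.393 to 0.551 CPM in mutants and 0.329 to 0.629 CPM in wild type.

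In the Peg3 cluster, Peg3, a paternally expressed zinc finger factor, stood at 342, 420, 379 and 457 CPM in mutant 1 to 4 and at 364, 275, 423 and 362 CPM in wild type 5 to 8. The groups overlapped, with wild type 6 the lowest (log2 fold change 0.17, SE 0.141, edgeR adjusted p = 0.644). Usp29, a ubiquitin-specific protease gene that starts beside Peg3 in the window printed above, was at 24.9, 31.4, 20.2 and 42.5 CPM in mutants and at 21, 17.4, 30.3 and 22.4 CPM in wild type (log2 fold change 0.38, SE 0.230, edgeR adjusted p = 0.513; 0.17 without mutant 4). Per kb, Peg3 was 2.77 ± 0.649 times as high as Usp29 in mutants and 3.10 ± 0.276 times in wild type. The deposited length of Usp29 is 0.144 of its exon length in GENCODE release M21, and over that length it was at 1.64 CPM per kb in mutants and 1.26 CPM per kb in wild type, against 30.0 and 26.7 CPM per kb for Peg3.

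Of the Prader-Willi and Angelman genes, Ndn stood at 105, 166, 153 and 149 CPM in mutant 1 to 4 and at 106, 96.1, 126 and 148 CPM in wild type 5 to 8 (log2 fold change 0.27, SE 0.164, edgeR adjusted p = 0.517). Mutants 2 to 4 were above every wild type library and mutant 1 was not. Magel2, a MAGE protein of endosomal protein recycling, was at 2.42 to 6.46 CPM in mutants and 2.08 to 3.54 CPM in wild type. Ube3a was the steadiest member, at 195, 227, 220 and 219 CPM in mutants and 208, 196, 230 and 208 CPM in wild type, with the highest library 1.18 times the lowest. Its log2 fold change was 0.03 with an approximate 95% interval from -0.16 to 0.23.

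Mest, a paternally expressed alpha/beta hydrolase-fold protein, stood at 93.6, 130, 96.5 and 134 CPM in mutant 1 to 4 and at 115, 99.6, 146 and 136 CPM in wild type 5 to 8 (log2 fold change -0.13, SE 0.155, edgeR adjusted p = 0.743). Copg2, a subunit of the COPI vesicle coat whose gene meets Mest tail to tail, was at 81.9 to 108 CPM in mutants and 91.9 to 119 CPM in wild type. The gene models share 912 exon bases on opposite strands, so that reads there cannot be assigned without strand. In the Peg10 cluster, the sarcoglycan gene Sgce stood at 35.2, 39.2, 36.8 and 32.1 CPM in mutants and at 34.4, 35.9, 35.6 and 31.0 CPM in wild type (log2 fold change 0.07, SE 0.109, edgeR adjusted p = 0.827). Peg10, a retrotransposon-derived gene that starts beside Sgce, varied far more, at 19.2, 24.6, 9.81 and 14.6 CPM in mutants and at 13.1, 19.1, 16.9 and 16.4 CPM in wild type (log2 fold change 0.06, SE 0.242, edgeR adjusted p = 0.946). Asb4 had 8, 11, 7 and 13 counts in mutants and 14, 9, 21 and 15 counts in wild type (log2 fold change -0.56, SE 0.462, edgeR adjusted p = 0.636).

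The remaining members differed little between the group means. Gnas stood at 540, 616, 673 and 507 CPM in mutant 1 to 4 and at 552, 599, 578 and 623 CPM in wild type 5 to 8 (log2 fold change -0.01, SE 0.113, edgeR adjusted p = 0.979). An antisense gene model, Gm20721, covers 13.1% of its exons and was counted at nearly the same level, 560 CPM in mutants and 563 CPM in wild type. Impact, a translational regulator, was at 41.5 to 52.5 CPM in mutants and 43.3 to 48.4 CPM in wild type. The phosphoinositide phosphatase gene Inpp5f was at 108 to 157 CPM in mutants and 114 to 145 CPM in wild type, the zinc finger gene Zdbf2 at 48.8 to 69.2 CPM in mutants and 63.1 to 66.9 CPM in wild type, and Trappc9, of the TRAPP vesicle tethering complexes, at 15.6 to 22.4 CPM in mutants and 19.8 to 22.2 CPM in wild type. Their log2 fold changes lay between -0.08 for Zdbf2 and 0.10 for Inpp5f.

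Of 13 pairs of members from the same cluster, 7 varied together across the 8 libraries and 6 did not pass. Log2 levels were compared in 17 pairs in all, with exact two-sided permutation p adjusted over the 17 and 0.05 as the threshold. Pearson's r was 0.93 for Nnat and Blcap (exact p = 0.00146, adjusted p = 0.00998; Spearman's rho 0.88, exact p = 0.00724, adjusted p = 0.0246; n = 8). It was 0.68 without mutant 1 and wild type 6, the libraries farthest from the median of Nnat. For Mest and Copg2 r was 0.92 (exact p = 0.00171, adjusted p = 0.00998; rho 0.93, exact p = 0.00223, adjusted p = 0.0194), and 0.94 without the 2 farthest libraries. For Meg3 and Rian r was 0.91 (exact p = 0.00176, adjusted p = 0.00998; rho 0.90, exact p = 0.00456, adjusted p = 0.0194), and 0.91 without the 2 farthest. For Rian and Mirg r was 0.91 (exact p = 0.00384, adjusted p = 0.0163; rho 0.90, exact p = 0.00456, adjusted p = 0.0194), and 0.88 without the 2 farthest. Peg3 and Usp29 had an r of 0.86 (exact p = 0.00727, adjusted p = 0.0247), but a rho of 0.74 whose adjusted p was 0.0974 by the exact test, and r was 0.72 without mutant 4 and wild type 6. Meg3 and Mirg had an r of 0.84 (exact p = 0.00952, adjusted p = 0.0248; rho 0.86, exact p = 0.0107, adjusted p = 0.0260), and 0.90 without the 2 farthest. Taking deviations from the group means left r at 0.95, 0.92, 0.90, 0.89, 0.83 and 0.82 for these 6 pairs, in the order given. The points of each pair share their libraries and so their composition. Mest and Copg2 also share 912 exon bases, where reads may enter both values because it is not known whether strand was kept.

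Igf2 and H19 had an r of 0.79 (exact p = 0.0143, adjusted p = 0.0305; rho 0.90, exact p = 0.00456, adjusted p = 0.0194), and 0.80 without mutant 4 and wild type 5. Igf2 and Dlk1, on different chromosomes, had an r of 0.82 (exact p = 0.0102, adjusted p = 0.0248; rho 0.86, exact p = 0.0107, adjusted p = 0.0260), and 0.92 without mutant 4 and wild type 5. With Plagl1, Igf2 had an r of 0.79 (exact p = 0.0193, adjusted p = 0.0365; rho 0.67, exact p = 0.0831, adjusted p = 0.141), which rested on mutant 3 and mutant 4 and was 0.33 without them. Igf2, H19, Dlk1 and Plagl1 all had negative fold changes, and r of the deviations from the group means was smaller, at 0.70 for Igf2 with H19, 0.65 with Dlk1 and 0.59 with Plagl1. By contrast, r was 0.27 for Peg10 and Sgce (exact p = 0.525; rho 0.33, exact p = 0.428) and 0.46 for Ndn and Magel2 (exact p = 0.250; rho 0.40, exact p = 0.327), and Meg3 and Dlk1 of the same cluster had an r of -0.34 (exact p = 0.419; rho -0.31, exact p = 0.462). The other 3 pairs were Airn and Igf2r with an r of 0.56 (exact p = 0.141; rho 0.71, exact p = 0.0576), Sgce and Asb4 with -0.11 (exact p = 0.801; rho -0.10, exact p = 0.840), and Grb10 and Ddc with -0.56 (exact p = 0.148; rho -0.36, exact p = 0.389).

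**Figure D5:**
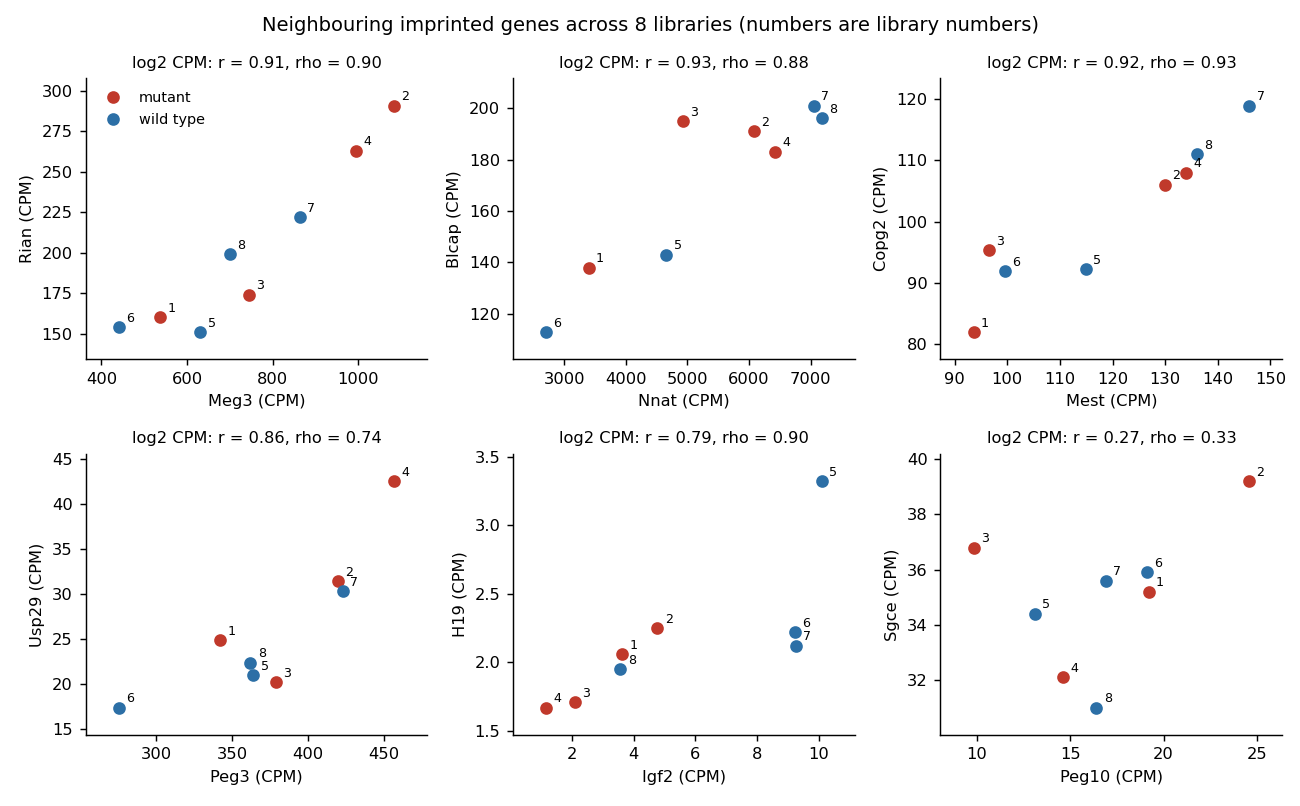
Levels in CPM of 6 pairs of neighbouring imprinted genes, a point for each library with its number, mutants in red and wild type in blue; r and rho are of log2 CPM over 8 libraries. Meg3 with Rian, Nnat with Blcap and Mest with Copg2 lie along rising lines with r of 0.91, 0.93 and 0.92, and Peg10 with Sgce do not, with r of 0.27.

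Beyond the members, a second list of 66 mouse genes reported as imprinted was examined, of which 59 were in the table and 49 tested. Of these, 1 passed as lower and 0 as higher (edgeR, adjusted p below 0.05), where 0.215% of all tested genes passed as lower, and the median log2 fold change was 0.01. Among the 49, the groups did not overlap for 3 genes that were higher in mutants, Zim1 and Ntm among them, and for 1 that was lower. They did not overlap for 6.17% of all tested genes. Gab1, an adaptor of growth factor receptors whose imprinting is known from the placenta, fell to 43.6, 52.7, 38.0 and 47.2 CPM in mutant 1 to 4, against 96.3, 60.1, 84.5 and 88.1 CPM in wild type 5 to 8. The groups did not overlap (log2 fold change -0.86, SE 0.153, edgeR adjusted p = 0.0412). Its call ended without mutant 2, 3 or 4 or wild type 5, 7 or 8, with adjusted p of 0.0702, 0.124, 0.124, 0.141, 0.0787 and 0.134.

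Zim1, a maternally expressed zinc finger gene of the Peg3 cluster, did not pass but had groups that did not overlap. It stood at 5.04, 9.53, 5.30 and 13.5 CPM in mutant 1 to 4 and at 2.78, 2.53, 3.40 and 2.89 CPM in wild type 5 to 8 (log2 fold change 1.52, SE 0.305, edgeR adjusted p = 0.0657). Mutant 2 and 4 were highest, as they were for the inhibitory marker sum. It passed with DESeq2 (adjusted p = 0.000184), with limma-voom and quality weights (0.0331, where 1.2% of genes passed), with edgeR and no filter on low counts (0.00668, where 0.616% passed), and without mutant 1 (0.00971). The paternally expressed exchange factor gene Rasgrf1, the cell adhesion gene Ntm and the nucleosome assembly gene Nap1l5 followed, with log2 fold changes of 1.33, 0.57 and 0.80, SEs of 0.298, 0.133 and 0.283, and edgeR adjusted p of 0.0982, 0.102 and 0.303. None of these 3 passed. Rasgrf1 and Ntm passed with DESeq2 (adjusted p of 0.00158 and 0.0124), with limma-voom and quality weights (0.038 and 0.0341) and with no filter (0.00923 and 0.0222), and Ntm also without mutant 1, wild type 5 and wild type 6 (0.0342). Without mutant 1, where 2.7% of all genes passed, all 3 did, with adjusted p of 0.0133, 0.0123 and 0.0143 (edgeR).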

How the data were processed

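RNA was sequenced from 4 mutant and 4 wild type samples. Library preparation started from 2 ng of RNA, primed at poly-A and at random and amplified for 14 cycles, and sequencing used 3 lanes, per the labels' protocols. The authors deposited raw read counts per gene, not normalised, with another value per gene, a width in bases. Its median over the exon length in GENCODE M21 is 1. The submitters' processing notes name mm10 and bcl2fastq 1.8.4. Which aligner, counter and annotation were used is not given in the sources used here. Of 39017 genes, 37607 matched a symbol. Column headings show the group and a running number only.

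After filterByExpr and TMM, counts were tested with edgeR 4.0.16 (quasi-likelihood, robust, no covariate, R 4.3.3) over 19494 genes with Benjamini-Hochberg adjustment at 0.05. SEs were derived from each fold change and its F statistic and are approximate, as are 95% intervals. The biological coefficient of variation was 23.2%. The fit was tested on simulated data. DESeq2 1.42.0 and limma 3.58.1 were alternatives. Correlations use log2 CPM with a prior count of 2. The members, lists and the alternative without mutant 1, wild type 5 and wild type 6 were chosen with earlier results of these data known. All members could be named. Values in every library were given for members with an unadjusted p below 0.05, a library past Dixon's critical value or the highest level per kb of their cluster, and some neighbours were added after their values were seen. Of the second list, genes past the threshold and the next 4 by p were named.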

Additional observations from a re-analysis of the deposited data

Results flagged for a closer look

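Among 130 groups of 4 values, 4 had a library farther from the others than Dixon's 95% critical value of 0.829 allows. Chance flags about 1 in 20 such groups. Igf2 was at 3.57 CPM in wild type 8 and at 9.23 to 10.1 CPM in the other wild type libraries. Asb4 was at 0.601 CPM in wild type 7, on 21 counts, and at 0.35 to 0.38 CPM in the others. The sum of Airn and Igf2r was 30.0 CPM in wild type 8 and 32.9 to 33.4 CPM in the others. The ratio of Mest to Copg2 per kb was 1.23 in wild type 6 and 1.40 to 1.42 in the others.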

How the results depend on the processing

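Of 29 tested members, 28 passed in none of the alternatives that could test them, and Igf2 passed with DESeq2 only, where the count of members was 1. The filter of 1 CPM left 25 members, without Dlk1, Asb4, Ddc and Airn, and DESeq2 gave Asb4 no adjusted p. A single left-out library turned the log2 fold change or moved it over 1.5 times for 23 members, and for Airn, Cdkn1c, Dlk1, Igf2, Ndn and Plagl1 it did not. The sign of the log2 fold change held in every fit for 20 members and turned in some for the other 9, whose values were small. Without TMM factors Ube3a was -0.03, Peg10 -0.005 and Impact -0.02. With limma-voom Peg10 was -0.06 and Nnat 0.01, and with quality weights Nnat was 0.06 and Impact -0.02. With no filter on low counts Gnas was 0.004. Without mutant 1, wild type 5 and wild type 6, Peg10 was -0.04, Blcap -0.06 and Gnas 0.0008. With single libraries left out, values ran from -0.17 to 0.25 for Peg10, -0.27 to 0.12 for Nnat, -0.03 to 0.23 for Blcap, -0.09 to 0.06 for Gnas, -0.05 to 0.28 for Ddc, -0.01 to 0.10 for Impact, -0.14 to 0.01 for Zdbf2 and -0.12 to 0.04 for Trappc9. The causes were not tested. Calls over all genes numbered 70, and 489 with DESeq2, 233 with quality weights, 214 with no filter, 171 without mutant 1, wild type 5 and wild type 6, and 26 to 544 with single libraries left out (544 without mutant 1, 26 without mutant 4). Calls in the second list numbered 1, and 4 with DESeq2, with quality weights and with no filter, 2 without mutant 1, wild type 5 and wild type 6, and 0 to 5 with single libraries left out. All 60 group means moved by less than 1 SD without TMM factors, and scaling moved the median log2 fold change by at most 0.06. No paired analysis was possible because the column headings do not carry the replicate numbers of the titles. Levels per kb are another unit and were not compared with CPM. Dlk1, Asb4 and Ddc had 7 to 33 counts a library, where counting error limits what can be seen.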
